A study of Rattus norvegicus with 2 samples.

Results

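Bone morphogenetic protein (BMP) signalling and the ID factors were followed through 10 genes in rat oligodendrocyte precursor cells that had been made to differentiate with or without knockdown of the chaperone HSC70. The genes were taken by symbol and role, with earlier results of these data known. They are the ligand genes Bmp4 and Bmp7, the receptor genes Bmpr1a and Bmpr2, the inhibitory SMAD genes Smad6 and Smad7, and the inhibitor of DNA binding genes Id1, Id2, Id3 and Id4. All 10 had a row among the 18049 genes of the table, and all 10 were among the 13518 genes counted as measured, those averaging 1 CPM or more (CPM are counts set to a common library total).

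The comparison addresses what loss of HSC70 does to gene expression in these differentiating cells. The siHsc70 sample received an siRNA against Hsc70, the constitutive HSP70 chaperone encoded by Hspa8. The siSCR sample received a scrambled siRNA. Both came from wild-type rat pups of postnatal day 2 to 4, whose cortical precursors were purified on antibody-coated dishes, electroporated, and cultured to day 2 with T3, a thyroid hormone, at 60 nM. The medium of both kept the cytokine CNTF and forskolin, and no BMP or BMP antagonist is named among its additives. How many pups were pooled is not given in the sources used here. Each group was 1 library, with a total count of 18130768 in siHsc70 and 19085587 in siSCR, so no difference below could be compared with the spread between cultures, and no p-value is given.

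BMPs are secreted ligands that bring type I and type II receptor kinases together on the cell surface. The activated type I receptor phosphorylates SMAD1, SMAD5 and SMAD9, which enter the nucleus with SMAD4 and switch on target genes, among them the Id genes and, as feedback, the inhibitory SMAD genes. ID proteins have a helix-loop-helix domain without the basic region that binds DNA, so they tie up E proteins and related factors in inactive pairs. In cultured oligodendrocyte precursors, BMP4 is known to hold back oligodendrocyte formation and to favour astrocytes, and ID2 and ID4 are known to bind OLIG proteins.

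Of the 10 genes, Bmp4 alone passed the 2-fold rule (a difference of 1 or more on the log2(CPM + 1) scale) in the downward direction in siHsc70, and 0 passed it upward. The same rule was passed downward by 5.14% and upward by 2.29% of the measured genes. The ligand gene was 8.26-fold lower, whereas Id1 and Id3, which are the usual readouts of BMP signalling, were 1.47-fold and 1.38-fold higher. The receptor genes Bmpr1a and Bmpr2 and the inhibitory Smad7 were lower by less than 2-fold. Bmp7, Smad6 and Id2 were within counting error of equal levels. The median difference of the 10 genes was -0.076 on that scale, against -0.0034 over all measured genes.

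The start regions of 3 genes are shown because Bmp4 was the one member past 2-fold and Id1 and Id3 were the members that were higher together. They are the RefSeq windows of the rat assembly GRCr8, from 250 bases before to 50 after the annotated start, written 5′ to 3′ on the gene's strand. Capitals mark matches, on either strand, to CAGAC (a SMAD box) and to GAANNTTC (facing GAA repeats of the kind heat shock factors recognise).
Bmp4 (chr15:22101884-22102183, minus strand): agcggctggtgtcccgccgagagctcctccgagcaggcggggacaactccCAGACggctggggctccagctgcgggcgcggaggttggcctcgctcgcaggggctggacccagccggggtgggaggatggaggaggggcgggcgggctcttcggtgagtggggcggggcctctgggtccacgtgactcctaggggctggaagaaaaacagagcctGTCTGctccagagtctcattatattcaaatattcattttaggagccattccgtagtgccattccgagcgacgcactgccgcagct
Id1 (chr3:161671314-161671613, plus strand): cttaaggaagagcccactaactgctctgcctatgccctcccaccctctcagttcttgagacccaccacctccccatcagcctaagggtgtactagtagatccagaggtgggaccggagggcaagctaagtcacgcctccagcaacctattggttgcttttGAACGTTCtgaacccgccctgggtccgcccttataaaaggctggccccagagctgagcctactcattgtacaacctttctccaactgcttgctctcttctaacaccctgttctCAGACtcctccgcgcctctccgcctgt
Id3 (chr5:153656041-153656340, plus strand): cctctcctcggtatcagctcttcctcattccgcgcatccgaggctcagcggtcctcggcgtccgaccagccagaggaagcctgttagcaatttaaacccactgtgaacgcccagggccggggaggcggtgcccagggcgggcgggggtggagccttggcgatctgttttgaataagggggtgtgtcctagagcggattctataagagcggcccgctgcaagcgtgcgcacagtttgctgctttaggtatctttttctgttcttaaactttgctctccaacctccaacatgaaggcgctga

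A window was held for 8 of the 10 genes, Bmp7 and Smad6 being without one. Each was searched on both strands for 5 motifs, which were CAGAC, GAANNTTC, the GC-rich SMAD motif GGCGCC, the E-box CANNTG and the SOX core ACAAT, and no matches shared a base. CAGAC was found in Bmp4, at 200 and 35 bases before the start, and in Id1, at base 24 after it. It is in 50.1% of all 33469 windows of this length. GGCGCC was found in Smad7, at 96 and 36 bases before the start, and in Id4, at base 39 after it, against 11.0% of all windows. The annotated start of Id4 falls on an ATG, so its match may lie in coding sequence, which was not examined. GAANNTTC and ACAAT were each found in Id1 alone of the 8, at 90 and 26 bases before the start, and are in 8.59% and 33.7% of all windows. E-boxes were found in Bmp4 at 184 and 72 bases before the start, in Id1 at 9 and in Id2 at 215, against 72.1% of all windows. In Id3, Bmpr1a and Bmpr2 none of the 5 motifs was found. The Bmpr1a window was 30% G and C, the lowest of the 8, against a median of 51.67% over all windows. Whether its annotated start is the one used in these cells was not tested. These letters are a description of the windows and were not tested as binding sites.

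**Figure D1:**
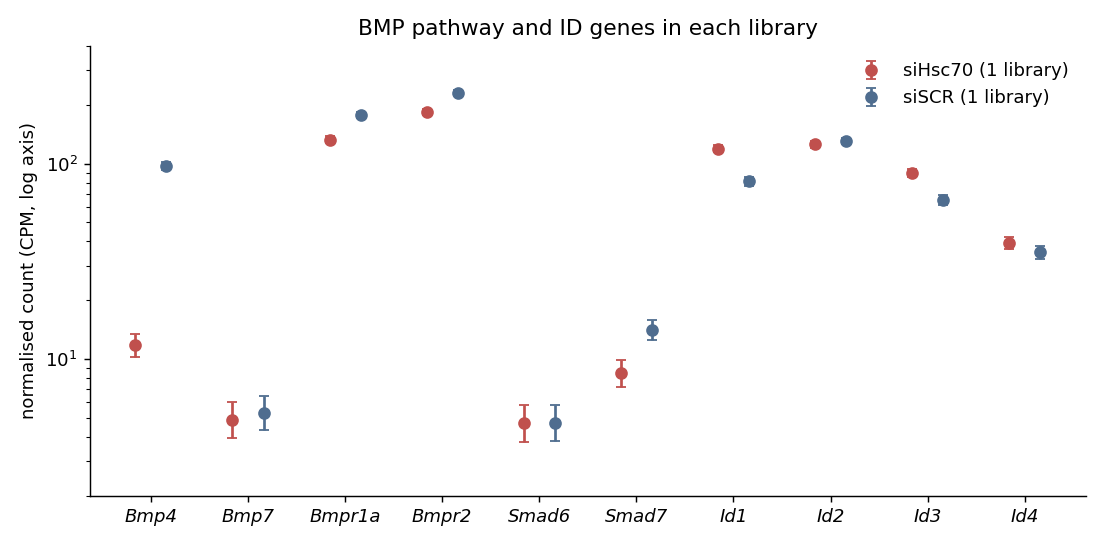
Normalised counts (CPM, log axis) of the 10 genes in the siHsc70 library (left point of each pair) and the siSCR library (right point), with exact Poisson 95% intervals that cover counting error only. Bmp4 stands at 11.8 CPM in siHsc70 and 97.4 CPM in siSCR, while each of the other 9 genes differs by less than 2-fold.

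Among the ligands, Bmp4 (gene ID 25296) had 212 counts in siHsc70 and 1874 counts in siSCR, which is 11.8 CPM (exact Poisson 95% interval 10.3 to 13.5) against 97.4 CPM (93.0 to 101.9). The fold difference of 8.26 had a 95% Clopper-Pearson counting interval of 7.16 to 9.57. On the log2(CPM + 1) scale the difference was -2.94, and 13 of the 13518 measured genes, Bmp4 included, were as low or lower. Of the 3017 measured genes with a mean level within 1.5-fold of that of Bmp4, 0.0331% were as low, which is Bmp4 itself. By the deposited TPM, which are scaled for length, Bmp4 stood above 36.3% of measured genes in siHsc70 and above 87.0% in siSCR.

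Bmp7, a ligand that signals through the same receptors, was a minor transcript in both libraries. It had 88 counts in siHsc70 and 102 counts in siSCR, or 4.89 CPM against 5.30 CPM. The ratio was 0.923 with a counting interval of 0.686 to 1.24, so counts of this size leave a difference of that order undetectable. Bmp4 relative to Bmp7 was therefore much lower in siHsc70: the ratio of their TPM was 3.38 there and 25.1 in siSCR.

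Of the BMP ligand genes Bmp2, Bmp4, Bmp6 and Bmp7, the one with the highest level per length was Bmp6 in siHsc70 and Bmp4 in siSCR. Bmp6, another BMP ligand, had 393 counts in siHsc70 and 205 in siSCR and was 2.05-fold higher (1.73 to 2.44; 21.9 against 10.7 CPM), which on the log2(CPM + 1) scale was 0.97, just short of the 2-fold rule. Bmp2 was at 19.9 CPM in siHsc70 and 18.2 CPM in siSCR, with an interval of its ratio of 0.936 to 1.26. Of 18 BMP and GDF ligand genes outside the 10, Bmp2 and Bmp6 among them, 5 were measured, 0 passed the 2-fold rule and the median difference was 0.12. Summed over the 4 BMP genes, the deposited TPM came to 58.2 in siHsc70 and 150.8 in siSCR. Bmp4 made up 22.5% of that sum in siHsc70 against 77.4% in siSCR, and Bmp6 made up 48.5% against 10.1%. The ratio of Bmp6 to Bmp4 counts was 16.9 times as high in siHsc70 as in siSCR (exact conditional 95% interval 13.5 to 21.3), a comparison within each library that no scaling between libraries can move.

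**Figure D2:**
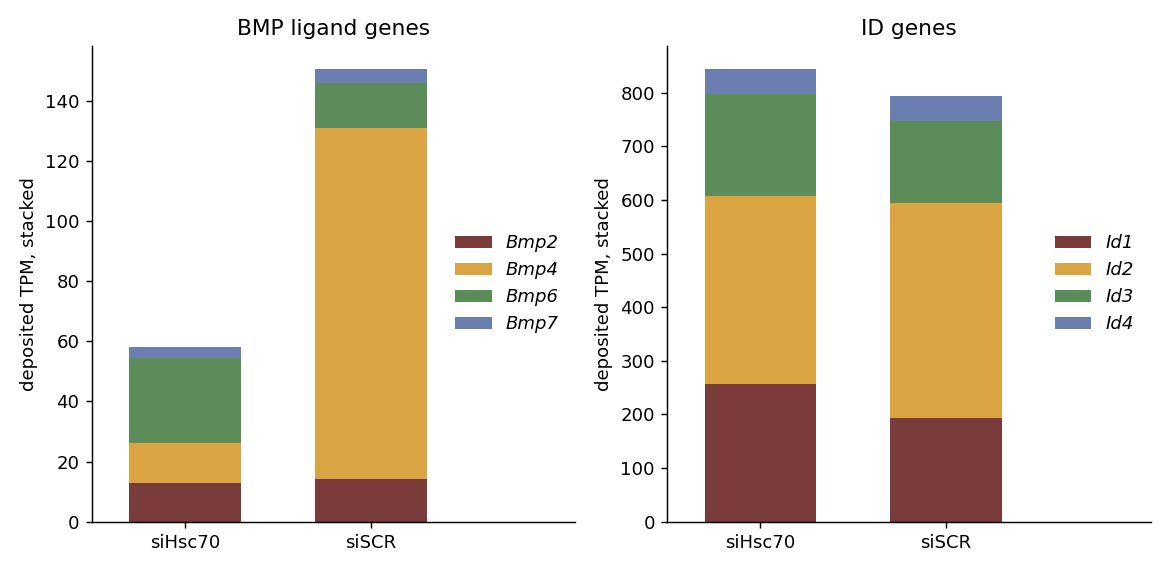
Deposited TPM of 4 BMP ligand genes (left panel) and of the 4 ID genes (right panel), stacked, in the siHsc70 library (left bar) and the siSCR library (right bar), 1 library each. Bmp4 fills 77.4% of the siSCR ligand bar and 22.5% of the siHsc70 one, while the ID bars reach 845.3 TPM in siHsc70 and 793.7 TPM in siSCR.

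The gene for the secreted antagonist noggin, which binds BMP4 and keeps it from its receptors, was lower together with Bmp4. Nog was at 10.3 CPM in siHsc70 and 32.2 CPM in siSCR, a 3.13-fold difference (2.65 to 3.71). Of 10 measured extracellular antagonist genes it was the 1 past the 2-fold rule downward, with 0 past it upward on the log2(CPM + 1) scale, or 2 with a pseudocount of 0.1. By any amount 7 of the 10 were higher, as were 6724 of the 13518 measured genes. The median of these antagonists was 0.36. The highest was Fst, whose product follistatin binds activins and some BMPs, with a difference of 0.92 and a ratio of CPM of 2.14 (1.59 to 2.90; 7.67 CPM in siHsc70 against 3.59 CPM in siSCR). The ratio of CPM of Fstl3, another follistatin-like gene, was 2.22 (1.11 to 4.69). Fstl1, which encodes a follistatin-like secreted protein, was the most abundant of them by CPM, at 344.2 in siHsc70 and 214.4 in siSCR.

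Both receptor genes among the members were lower in siHsc70 and by similar amounts. Bmpr1a encodes the type I receptor kinase that phosphorylates the BMP SMADs. It had 2385 counts in siHsc70 and 3423 in siSCR, or 132.6 against 177.9 CPM, and was 1.34-fold lower (1.27 to 1.41). Bmpr2 encodes the type II kinase that activates type I receptors. It had 3293 counts in siHsc70 and 4428 in siSCR, or 183.1 against 230.1 CPM, and was 1.26-fold lower (1.20 to 1.32). The ratio of Bmpr1a to Bmpr2 counts was 0.937 times as high in siHsc70 as in siSCR, and its interval, 0.874 to 1.004, included 1. Differences of this size were common: 17.7% of measured genes were lower by at least as much as Bmpr1a and 22.2% by at least as much as Bmpr2. Of 11 other measured receptor and coreceptor genes 8 were lower by any amount, as were 6794 of the 13518 measured genes. The median of the 11 was -0.14. The 1 past 2-fold, upward, was Tgfbr2, a type II receptor of TGF-β, at 49.99 CPM in siHsc70 against 24.1 CPM in siSCR. Its difference of 1.02 fell under the 2-fold rule with library totals, a pseudocount of 5, the deposited TPM and the deposited FPKM.

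The SMADs that carry the BMP signal were present in both libraries and differed little. Smad1 was at 60.8 CPM in siHsc70 and 62.9 CPM in siSCR, and Smad4, the common partner, was at 106.7 CPM in siHsc70 and 112.6 CPM in siSCR. Smad5 was 1.25-fold lower (1.18 to 1.32) and Smad9 was 1.30-fold lower (1.19 to 1.42), at 49.8 CPM in siHsc70 against 64.7 CPM in siSCR. Counting also Smad2 and Smad3, which are outside the BMP branch, 6 signalling SMAD genes were measured. Of these 6, 0 differed by 1.5-fold or more, and Smad9 was the furthest from 0. The median of the 6 was -0.064. Smad2 and Smad3 were the 2 that were higher, with differences of 0.025 and 0.33, and the 4 named above were lower.

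**Figure D3:**
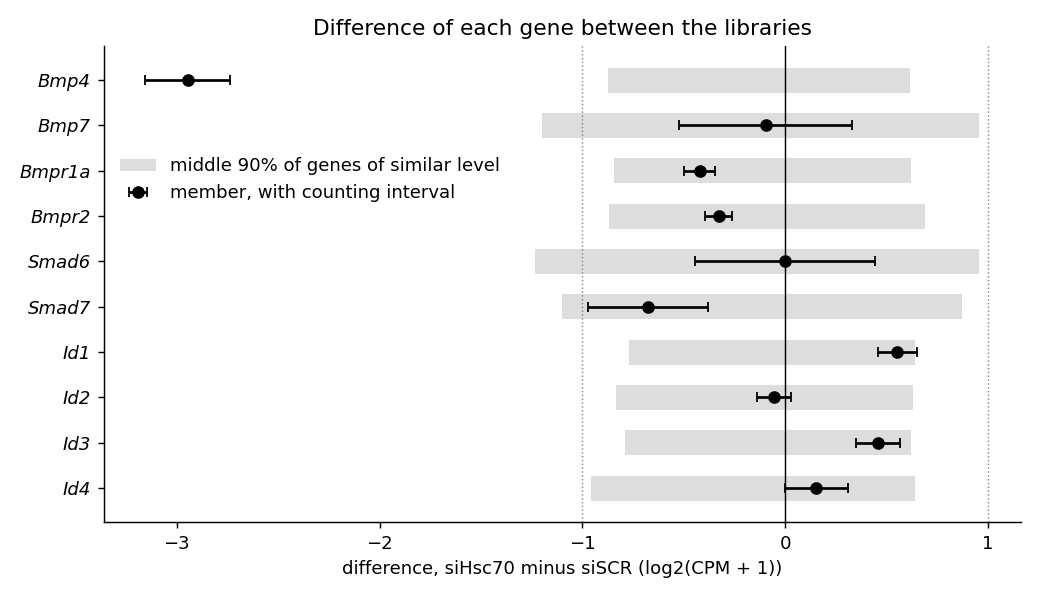
Difference of each of the 10 genes, siHsc70 minus siSCR, on the log2(CPM + 1) scale (points), with the 95% counting interval of the ratio drawn around it. Grey bars span the middle 90% of the differences of measured genes with a mean level within 1.5-fold of that gene, and dotted lines mark a 2-fold difference. Bmp4 lies far to the left of its bar, and the other 9 genes lie within theirs.

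Of the inhibitory SMAD genes, Smad7, whose product binds the type I receptors of both the BMP and the TGF-β branch, had 152 counts in siHsc70 and 271 counts in siSCR, or 8.45 against 14.1 CPM. It was 1.67-fold lower (1.36 to 2.05), and 9.85% of measured genes were lower by at least as much. Smad6, whose product is the more selective inhibitor of the BMP branch, had 85 counts in siHsc70 and 91 counts in siSCR and was at 4.73 CPM in both, with a ratio of 1.00 (0.735 to 1.36).

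The per-length values of Smad6 did not follow its counts. The deposited FPKM were 1.62 in siHsc70 and 2.33 in siSCR, and the deposited TPM were 3.12 in siHsc70 and 4.86 in siSCR, so that Smad6 was lower in siHsc70 by these values while its scaled counts were equal. The count per unit of FPKM, which follows the transcript length used for the gene, was 1.41 times as high in siHsc70 as in siSCR relative to the median gene. It differed between the libraries by over 1.33 times for 0.142% of the 12011 genes compared, and for the other 9 members it lay between 0.977 and 1.02. The cause was not tested, and no direction is given for Smad6.

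With a 1.5-fold rule, 2 of the 10 genes were lower, Bmp4 and Smad7, and 0 were higher, against 12% of measured genes lower and 9.65% higher. Counting intervals that exclude a ratio of 1 were found for 4 members below 1 (Bmp4, Bmpr1a, Bmpr2 and Smad7) and for 3 above 1 (Id1, Id3 and Id4). At this depth the same holds for 33.8% of measured genes below 1 and 32.5% above 1, so such an interval says little about a gene. Of 10 measured intracellular inhibitors of the pathway other than SMAD6 and SMAD7, 0 passed the 2-fold rule in either direction, with a median of -0.063. The furthest from 0 was Skil, which encodes a corepressor of SMAD complexes, at 73.2 CPM in siHsc70 and 117.0 CPM in siSCR, 1.60-fold lower (1.49 to 1.71).

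The ID genes were among the abundant transcripts of these cells. By the deposited TPM, Id2 stood above 96.8% of measured genes in siHsc70 and above 97.4% in siSCR. Id1 and Id3 stood above 95.2% and 93.2% in siHsc70, and above 93.1% and 90.7% in siSCR. Id4 was the least abundant of the family, at 47.5 TPM in siHsc70 and 46.9 TPM in siSCR. The order of the TPM was Id2, Id1, Id3 and Id4 in both libraries.

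Id1, a classic immediate target of BMP SMADs, was at 119.4 CPM (114.4 to 124.6) in siHsc70 and 81.0 CPM (77.1 to 85.1) in siSCR. It was 1.47-fold higher (1.38 to 1.57), and its difference of 0.55 was reached or passed by 10.5% of measured genes. Id3, which usually shares its regulation with Id1, was at 89.6 CPM (85.3 to 94.1) in siHsc70 and 65.0 CPM (61.5 to 68.7) in siSCR. It was 1.38-fold higher (1.28 to 1.49), and 14.1% of measured genes were higher by at least as much as its difference of 0.46. The ratio of Id1 to Id3 counts was 1.07 times as high in siHsc70 as in siSCR with an interval of 0.968 to 1.18, so the difference between these genes was within counting error.

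Id2, which in this lineage has been tied to proliferation of precursors, was at 125.6 CPM (120.4 to 130.8) in siHsc70 and 130.5 CPM (125.4 to 135.7) in siSCR. Its ratio was 0.962 (0.909 to 1.02). Id4, also known as a brake on oligodendrocyte differentiation, was at 39.3 CPM (36.5 to 42.3) in siHsc70 and 35.2 CPM (32.6 to 38.0) in siSCR, with a ratio of 1.12 (1.003 to 1.24). With upper-quartile scaling the difference of Id2 turned to 0.0068, while that of Id4 stayed above 0 under every scaling run. Under upper-quartile scaling the median of all measured genes was itself 0.055, and relative to that median Id2 was at -0.048.

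The sum of the family and its make-up were also compared. Summed TPM of Id1 to Id4 were 845.3 in siHsc70 and 793.7 in siSCR, and the summed counts gave a ratio of 1.20 (1.16 to 1.24; 373.9 against 311.8 CPM). Id2 made up 41.3% of the summed TPM in siHsc70 and 50.5% in siSCR, Id1 made up 30.4% against 24.4%, and Id3 22.6% against 19.3%. Id4 made up 5.61% against 5.91%. Within each library, and so free of any scaling, the ratio of Id1 to Id2 counts was 1.53 times as high in siHsc70 as in siSCR (1.40 to 1.67), and that of Id3 to Id2 was 1.43 times as high (1.30 to 1.57). These intervals are exact conditional 95% intervals and cover counting error only.

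The E proteins that ID proteins bind were lower in part. Tcf12 was at 188.4 CPM in siHsc70 and 314.1 CPM in siSCR, 1.67-fold lower (1.60 to 1.74), and was the furthest from 0 of 8 measured genes of E proteins and other basic helix-loop-helix factors. Tcf4 was at 71.8 CPM in siHsc70 and 86.7 CPM in siSCR, and Tcf3 at 92.7 CPM in siHsc70 and 90.8 CPM in siSCR. The OLIG genes went opposite ways. Olig1 was 1.13-fold higher (1.11 to 1.15), at 1359 CPM in siHsc70 and 1207 CPM in siSCR. Olig2 was 1.43-fold lower (1.39 to 1.47), at 378.2 CPM in siHsc70 and 540.2 CPM in siSCR. By CPM 0 of these 8 genes passed the 2-fold rule, and their median was -0.19. The summed TPM of Id1 to Id4 were 3.70 times those of Tcf3, Tcf4 and Tcf12 in siHsc70 and 2.38 times in siSCR, as the E protein sum was 228.7 TPM in siHsc70 against 333.1 TPM in siSCR. These are transcript levels, and protein was not measured.

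**Figure D4:**
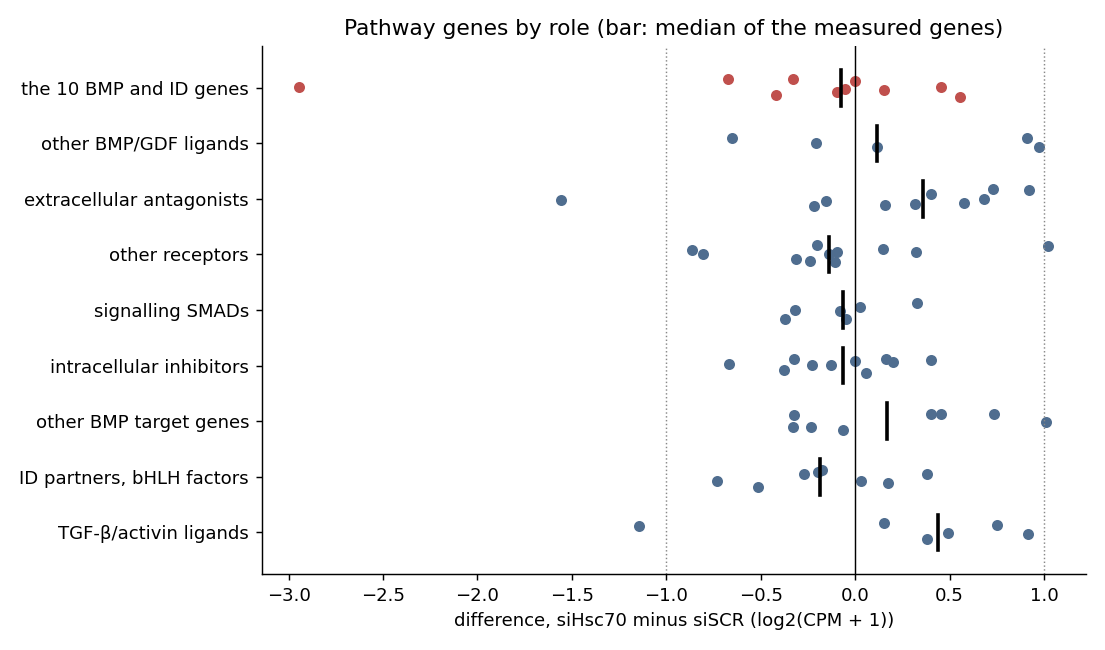
Difference of each measured gene, siHsc70 minus siSCR, on the log2(CPM + 1) scale, by role in the pathway, with each list's median as a black bar and dotted lines at a 2-fold difference. Bmp4 at -2.94 is the lowest gene drawn, followed by the antagonist gene Nog at -1.56, and the medians of the 9 lists lie between -0.19 and 0.44.

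Other genes that BMP signalling is known to induce differed in both directions. Of 8 measured, 4 were higher and 4 were lower by any amount, with a median of 0.17, and 1 passed 2-fold upward. That gene was Msx1, a homeobox gene of early BMP response, with 69 counts in siHsc70 and 27 counts in siSCR and a 2.73-fold higher level (1.73 to 4.44). Its difference of 1.01 fell under the rule with library totals, median-of-ratios factors, a pseudocount of 5, the deposited TPM and the deposited FPKM, and at 2.62 CPM on average it was left out by a minimum of 5 CPM. Atoh8 and Hey1, also BMP-responsive in other cells, were at 10.6 and 36.2 CPM in siHsc70, against 13.6 and 45.7 CPM in siSCR.

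The culture itself differed between the libraries in the genes of the lineage. Hspa8 was at 506.9 CPM in siHsc70 and 1399 CPM in siSCR, a 2.76-fold difference in the direction of the knockdown. Of 15 oligodendrocyte lineage markers 11 passed 2-fold downward and 0 upward, and their summed level was 5081 CPM in siHsc70 against 12829 CPM in siSCR. The furthest from 0 were Gpr17 at 31.8 against 352.3 CPM and Enpp6 at 6.67 against 61.9 CPM, both markers of newly forming oligodendrocytes, a stage at which Bmp4 is also expressed. In bulk RNA, fewer cells of a type and less RNA per cell cannot be told apart, and the part of this shift in the Bmp4 difference was not tested.

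Markers of other cell types, some of which also express Id1 and Id3, were present too. Summed over 15 astrocyte markers, 13 of them measured, the level was 4330 CPM in siHsc70 and 4841 CPM in siSCR. Clu was past 2-fold upward and Aqp4 and Gfap were past it downward. By any amount 9 of the 13 were higher and 4 were lower, with a median of 0.098. Gfap, at 667.3 CPM in siHsc70 against 1416 CPM in siSCR, weighs heavily in the sum. Summed over 10 fibroblast and mural markers, 6 of them measured, it was 181.9 CPM in siHsc70 and 76.1 CPM in siSCR, with 3 past 2-fold upward, among them Col1a1 at 73.8 against 24.3 CPM and Col6a1 at 74.5 against 32.7 CPM. The fibroblast marker Lum had 0 counts in siHsc70, which allows up to 0.167 CPM, and 2 counts in siSCR, and Dcn had 1 count in siHsc70 and 9 in siSCR. Endothelial markers, 4 of 10 measured, summed to 12.2 CPM in siHsc70 and 13.2 CPM in siSCR, with Cdh5 at 0 counts in siHsc70 and 1 in siSCR and, of those measured, Kdr at 0.278 against 2.29 CPM, Flt1 at 4.23 against 5.66 CPM, Esam at 1.501 against 0.520 CPM and Egfl7 at 4.67 against 2.49 CPM. Microglial markers, 2 of 10 measured, summed to 10.4 CPM in siHsc70 and 6.44 CPM in siSCR, with those measured, Cd68 and Tmem119, at 4.34 against 1.66 CPM and at 5.50 against 3.38 CPM. The other microglial markers with a row were at or under 15 counts: Aif1 had 1 count in siHsc70 and 0 in siSCR, Csf1r 2 against 8, P2ry12 5 against 15 and Ptprc 2 against 4. Neuronal markers, 12 of 12 measured, summed to 678.3 CPM in siHsc70 and 954.2 CPM in siSCR. By any amount 5 of them were higher and 7 were lower, with a median of -0.61. Nefh was at 2.22 against 0.572 CPM, Dcx at 6.23 against 33.2 CPM and Elavl3 at 21.5 against 62.5 CPM. The part of these markers in the Id1 and Id3 differences was not tested.

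The way the libraries are scaled bears on the small differences and not on Bmp4. The deposited TPM placed the median of all measured genes at -0.13, so differences by TPM are to be read against that median. By TPM the differences were -3.06 for Bmp4, -0.57 for Bmpr1a, -0.49 for Bmpr2, -0.74 for Smad7, 0.41 for Id1 and 0.32 for Id3. By the deposited FPKM they were -2.86 for Bmp4 and -0.55 for Smad7. Smad7 then missed the 1.5-fold rule, as it did with a pseudocount of 5, where its difference was -0.50. Over the scalings, units and pseudocounts run, the differences of Bmp4, Bmp7, Bmpr1a, Bmpr2 and Smad7 stayed below 0 and those of Id1, Id3 and Id4 stayed above 0.

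**Figure D5:**
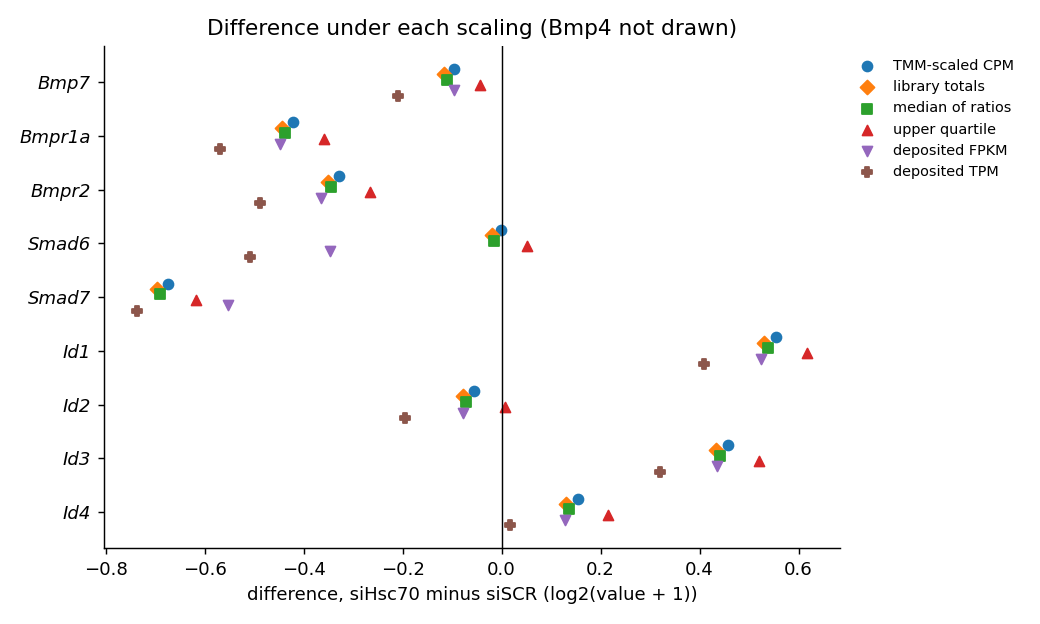
Difference of 9 of the genes, siHsc70 minus siSCR, on the log2(value + 1) scale, under 4 scalings of the counts and with the deposited FPKM and TPM; Bmp4, between -3.06 and -2.86 under these settings, is not drawn. Id1 and Id3 lie to the right of 0 and Bmpr1a, Bmpr2 and Smad7 to the left under each, whereas Id2 and Smad6 have points on both sides.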

How the data were processed

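Total RNA of 2 samples (1 siHsc70, 1 siSCR) was sequenced. The table holds estimated counts, FPKM and TPM for each library, as deposited by the authors, per the file headers. The authors' estimated counts are not normalised, and 26.7% (siHsc70) and 26.5% (siSCR) of them are not whole. The deposited FPKM are scaled for length and library size, and the deposited TPM sum to 999999.4 in siHsc70 and 999999.8 in siSCR. The submitters' processing notes name the build mm39, whereas the gene IDs are those of rat: 16783 of 18049 were found in rat RefSeq. Of the aligner, counter, annotation and strand setting, none is given in the sources used here. Without a stated strand setting, reads of overlapping antisense genes cannot be told apart. No row named as a copy or pseudogene of a member was found.

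Counts were rounded and scaled to CPM with TMM factors (0.992 for siHsc70, 1.01 for siSCR) of edgeR 4.0.16 in R 4.3.3. Differences are log2(CPM + 1), which understates changes of low genes, and folds are ratios of CPM. Genes averaging 1 CPM or more were called measured. A rule of size (2-fold) stands in for a test. Intervals (95%: Clopper-Pearson for ratios, exact Poisson for levels, exact conditional for ratios of ratios, scipy 1.17.1) cover counting error only, and PCR copies are not independent molecules. TPM shares carry no interval. The interval procedure was checked on simulated data.

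Members and gene lists were chosen with earlier results of these data known. There were 8 lists of pathway roles and 6 of cell type markers. The members were named in any case, and from each list up to 2 higher and 2 lower genes past 2-fold with the largest difference, or the one furthest from 0. Bmp2, Fst, Fstl1, Fstl3, Smad1, Smad2, Smad3, Smad4, Smad5, Tcf3, Tcf4, Olig1, Olig2, Atoh8, Hey1, Unc5b, Msx2, Runx2, Dlx2, Junb, Lum, Dcn, Cdh5, Flt1, Esam, Egfl7, Tmem119, Aif1, Csf1r, P2ry12 and Ptprc were named outside that rule, after their values were seen, as were Gdf15, Inha, Inhbb, Tgfb1, Tgfb3 and Acvr2b. Other scalings, pseudocounts, minimum means, a 1.5-fold rule and the deposited FPKM and TPM were run as alternatives.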

Additional observations from a re-analysis of the deposited data

How the results depend on the processing

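With 1 library per group, no library could be left out, and no limit below concerns the spread between cultures. No paired analysis was possible because each group has 1 sample and no result comes from a test. The alternative of adding copies of a member was not run, as no such row was found. Bmp4 was at least 2-fold lower under every setting run, from -3.06 with the deposited TPM to -2.61 with a pseudocount of 5, and 0 members were at least 2-fold higher under any. The count of members lower was 1, or 2 with the 1.5-fold rule. Genes at least 2-fold higher over the whole table numbered 310, against 518 with a pseudocount of 0.1, 132 with one of 5 and 203 with the deposited FPKM. Genes at least 2-fold lower numbered 695, against 417 with a pseudocount of 5. With the 1.5-fold rule these counts were 1304 higher and 1626 lower. The median of the members was -0.35 with the deposited TPM and -0.22 with the deposited FPKM. Bmp7 and Smad6, with under 110 counts in each library, are limited by depth.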

Other observations

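The TGF-β and activin branch, which shares SMAD4 and SMAD7 with the BMP branch, was represented by 6 measured ligand genes, of which 1 passed the 2-fold rule. By any amount 5 of the 6 were higher in siHsc70, as were 6724 of the 13518 measured genes, and the median was 0.44. Inha, an inhibin subunit, was at 2.95 CPM in siHsc70 and 1.09 CPM in siSCR, and Inhbb, an activin subunit, at 7.95 against 4.31 CPM. Tgfb1 was at 8.01 CPM in siHsc70 and 5.41 CPM in siSCR, and Tgfb3 at 36.2 against 27.5 CPM. The remaining one, Tgfb2, was the only measured ligand gene of this branch that was at least 2-fold lower by CPM, at 25.7 CPM in siHsc70 and 57.9 CPM in siSCR, or 2.26-fold (2.02 to 2.52). It missed the 2-fold rule with the deposited FPKM.

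Gdf15, which encodes a stress-induced member of the wider ligand family that signals outside the BMP receptors, was by CPM the most abundant ligand gene of the lists, at 605.6 CPM in siHsc70 and 322.2 CPM in siSCR (ratio 1.88, interval 1.82 to 1.94). Acvr2b, a type II receptor gene for activins that some BMPs also use, had the lowest difference of the other receptor genes, at 14.2 CPM in siHsc70 and 26.7 CPM in siSCR, 1.88-fold lower (1.62 to 2.19).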
